A study of Mus musculus with 2 samples.

Results

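Single muscle stem cells of mouse grown in low glucose medium were set against cells grown in high glucose medium. The cells were those of wells that the deposited well sheet labels Low glucose or High glucose, in which 500 or more counts fell on genes and 250 or more genes were seen. They made up 233 of the 456 cells kept in the series, with 120 cells in low glucose and 113 cells in high glucose. Low glucose cells were cultured for 96 h in DMEM with 5 mM glucose, and high glucose cells for 96 h in DMEM with 25 mM glucose. Both media also held penicillin with streptomycin, the growth factor bFGF at 2.5 ng/ml, chick embryo extract at 0.05%, sera of horse and of fetal calf at 10% each, and sodium pyruvate at 1 mM. Galactose cells (121 cells, the same medium with 10 mM galactose) and freshly isolated cells (102 cells, called quiescent in the labels) are given as values side by side.

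All low glucose wells lay on plate 2, together with the galactose wells, and all high glucose wells lay on plate 1, together with the freshly isolated cells. Medium and plate were therefore confounded, and their parts in any difference below cannot be told apart. There was 1 library per plate and 1 pool of cells per medium, so no test between the media was possible and no p-value is given. Each pool came from 6 plate rows (A to F for low glucose, G to L for high glucose), and the spread between rows is shown beside each value, although rows of a plate are not replicate cultures. The strain, sex, age and number of the mice, the number of cultures and the gate of the cell sort are missing from the labels.

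Muscle stem cells, also called satellite cells, rest beneath the basal lamina of the muscle fibre and enter the cell cycle as Myod1-positive myoblasts after injury or isolation. Cells take up glucose and break it down to pyruvate, which feeds the tricarboxylic acid (TCA) cycle and the respiratory chain in mitochondria. Part of the citrate made there returns to the cytosol, where it yields the acetyl-CoA used to acetylate histones. The transcription factors MondoA and ChREBP, with their partner Mlx, sense glucose phosphates and switch on Txnip, which limits glucose uptake. By its title, the series was about how metabolism ties the surroundings of these cells to their renewal and to histone acetylation.

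Expression was measured with a modified CEL-Seq2 protocol, which tags the 3' ends of polyadenylated RNA of each well with a barcode. Values are counts summed over the wells of a condition and scaled to a total of 1000000 gene counts per condition (CPM). The low glucose pool held 1734279 gene counts and the high glucose pool 887611, with a median of 13371 counts (range 2616 to 39631) and 6747 counts (868 to 18844) per well. Plate rows held 229703 to 369259 counts in low glucose and 106077 to 171016 counts in high glucose. Per count of ERCC spike-in, a mix of synthetic RNAs added to the wells, the median well gave 47.7 gene counts in low glucose (row medians 39.4 to 56.5) and 57.0 in high glucose (47.7 to 65.8). The plates reused 200 barcodes, but no barcode was shared between a kept low glucose well and a kept high glucose well. Well barcodes and plate rows thus also differed between the media, and their parts cannot be told apart from those of medium and plate. Of the 10 markers of muscle stem cells and myoblasts all had counts in both pools, and their summed level was 2074 CPM in low glucose and 1946 CPM in high glucose.

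The chaperone gene Hspa1b, the immediate early genes Zfp36 and Fosb, and the genes of the secreted proteins Timp3 and Gpx3 were called lower in low glucose than in high glucose. The respiratory chain genes Cox6b1 and Atp5g3 and the cyclin gene Ccnd1 were called higher in low glucose. The myogenic factors Pax7, Myf5 and Myod1 were not called either way. Among 4197 protein-coding genes without pseudogene copies and with a mean of at least 20 CPM over the pools (the tested genes below, although no statistical test was run), 460 (11.0%) were at least 1.5-fold higher in low glucose and 435 (10.4%) at least 1.5-fold lower. Genes below 20 CPM in 1 pool passed the filter only through the other pool, so the filter fixed their direction. A gene was called when its ratio also passed 1.5-fold and its rows lay apart. That is, the CPM of the 6 low glucose rows and that of the 6 high glucose rows did not overlap. By this rule 73 genes (1.74%) were called higher and 51 (1.22%) lower, so that 58.9% of the calls were higher in low glucose. This share was 79.4% with TMM factors, 77.6% with median-of-ratios factors and 8.43% with spike-in scaling. These scalings moved the median log2 ratio of all genes from -0.003 to 0.12, 0.10 and -0.26. They shift all genes nearly alike, so a list's median under a scaling is to be read beside these values. Without low glucose row A, 122 genes were called higher, under a row rule that is easier to pass with fewer rows.

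**Figure D1:**
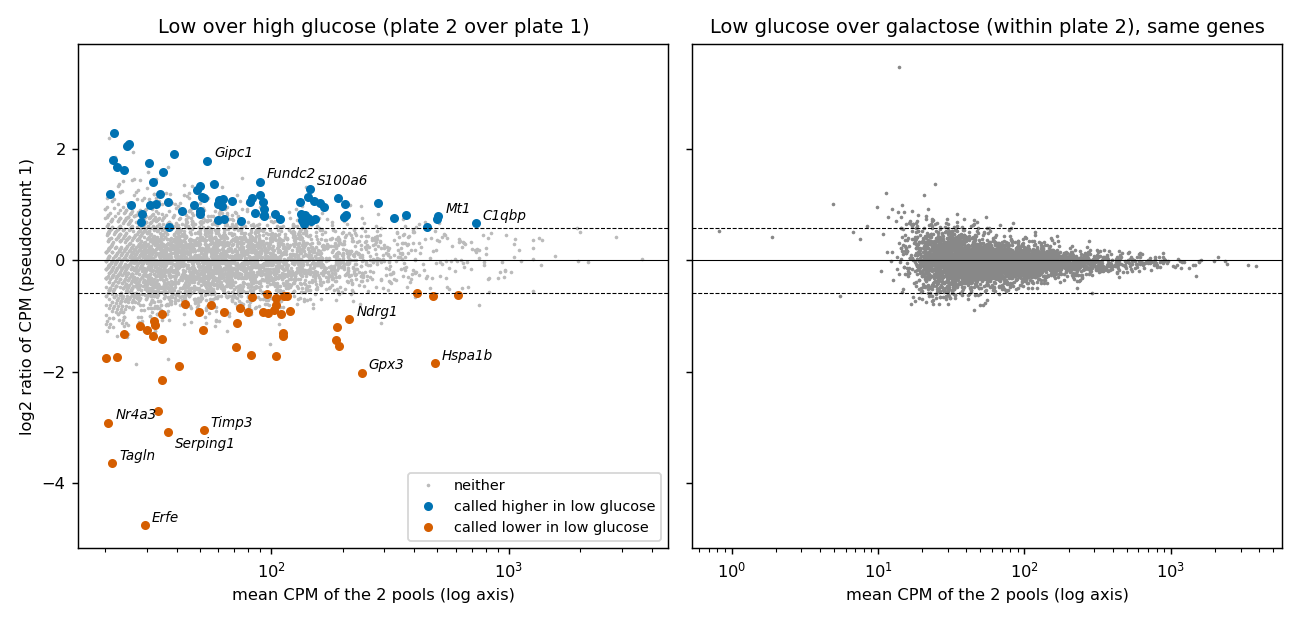
Log2 ratio of CPM (pseudocount 1 CPM) against the mean CPM of the pools, low over high glucose on the left (73 genes called higher in blue, 51 called lower in orange) and low glucose over galactose on the right, with 1.5-fold as dashed lines. The cloud is wider across the plates, with 460 and 435 genes past 1.5-fold, than within plate 2, and the called lower genes reach -4.76 (Erfe).

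Within plate 2 the same rule gave far fewer calls. Low glucose against galactose had 1 gene called higher (0.0238%) and 6 called lower (0.143%) of 4193 genes tested, and 37 genes (0.882%) and 65 genes (1.55%) passed 1.5-fold alone. Beyond counting error, log2 ratios of genes had an SD of 0.374 for low over high glucose and of 0.0954 for low glucose over galactose. The spike-in species, which come from a common mix, also spread more across plates than within plate 2. Their log2 ratios had an SD beyond counting error of 0.343 over 22 species for low over high glucose, and of 0 over 29 species for low glucose over galactose. Across plates 2 of 22 species passed 1.5-fold, the largest at 1.89-fold, whereas none of 29 did within plate 2.

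**Figure D2:**
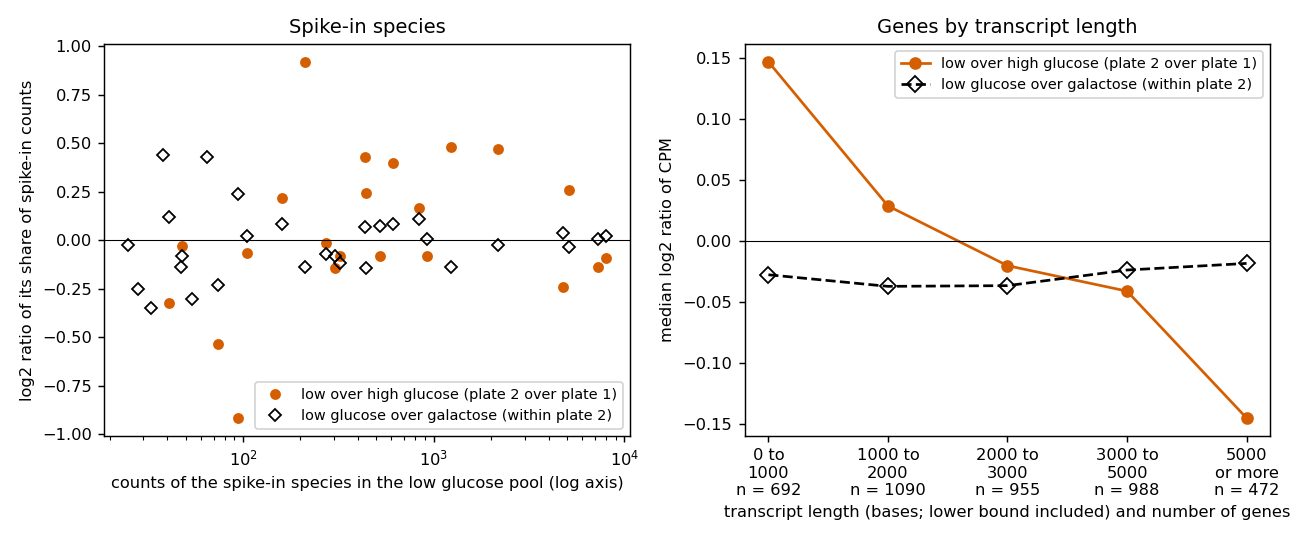
Left: log2 ratio of each spike-in species' share of spike-in counts against its counts in low glucose (log axis), for low over high glucose (filled) and low glucose over galactose (open). Right: median log2 ratio of genes in 5 bins of transcript length (median over a gene's annotated transcripts). For low over high glucose it runs from 0.15 below 1000 bases to -0.15 at 5000 bases or more. For low glucose over galactose it stays between -0.04 and -0.02.

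Few genes that respond to glucose itself could be judged, too few to say whether they shifted together. Txnip, an arrestin-like protein that blocks glucose uptake and is induced by MondoA, had 54.8 CPM in low glucose and 84.5 CPM in high glucose (ratio 0.648, 95% interval 0.474 to 0.890). Its plate rows held 40.7, 54.8 and 69.7 CPM (lowest, median and highest of the 6 plate rows) in low glucose and 63.3, 82.9 and 113 CPM in high glucose. This order of lowest, median and highest row is kept below. The low glucose rows lay mostly below the high glucose rows, but the ranges overlapped, so Txnip was not called. With spike-in scaling, Txnip had 2.76 counts per 1000 spike-in counts in low glucose and 5.09 in high glucose, and it was called lower. When each cell was thinned to 2000 counts, its direction turned, with a log2 ratio of 0.11 against -0.62 over all counts. Galactose cells, whose medium holds no added glucose by its label, had 51.6 CPM, close to the low glucose level. Arrdc4, the other MondoA target of this arrestin family, was too low to judge, with 12 counts in low glucose and 7 in high glucose. Of 4 tested members of the list of MondoA and ChREBP targets and partners (Txnip, Mlx, Mlxip and Klf10), none was called, and the list's median log2 ratio was -0.04 against -0.003 over all genes (0.08 with TMM factors).

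The promoter of Txnip is shown because it holds the pair of glucose-responsive boxes through which MondoA acts. The 300 bases run from 250 before to 50 after the gene's start (RefSeq, GRCm38.p6, chr3:96557707-96558006, plus strand), with the boxes CACGAG in capitals.
Txnip: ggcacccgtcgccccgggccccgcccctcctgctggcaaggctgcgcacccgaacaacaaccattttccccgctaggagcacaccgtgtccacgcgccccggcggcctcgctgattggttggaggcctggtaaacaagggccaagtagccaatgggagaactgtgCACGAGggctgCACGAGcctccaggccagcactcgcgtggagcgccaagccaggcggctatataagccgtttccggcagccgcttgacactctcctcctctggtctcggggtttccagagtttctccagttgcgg
The boxes began 85 and 74 bases before the start and lay 5 bases apart. CACGAG on either strand was found in 6.50% of the 32544 distinct mouse promoters of the table. The pair CACGAGNNNNNCACGAG on either strand was found in 1 of them, that of Txnip. Both motifs were searched after the values were seen. CACGTG, searched on both strands, was not among these letters and was found in 7.17% of promoters.

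Glucose uptake and glycolysis could be judged for 3 genes only. Of 23 listed genes 10 have pseudogene copies, and most of the 8 measured without copies were below the filter of 20 CPM. Slc2a1, the glucose transporter GLUT1, had 31.1 CPM in low glucose and 38.3 CPM in high glucose. Hk1, the hexokinase that traps glucose in the cell, had 88.8 CPM in low glucose and 113 CPM in high glucose. Pfkl, a phosphofructokinase, had 24.8 CPM in low glucose and 25.9 CPM in high glucose. All 3 ratios were below 1 and none was called (median log2 ratio -0.29). When each cell was thinned to 2000 counts, the log2 ratio of Slc2a1 turned to 0.42. Hk2 was near the floor, with 4 counts in low glucose and none in high glucose. The next 3 enzymes are reported as uncertain because pseudogene copies can share their reads. Ldha, lactate dehydrogenase A, had 524 CPM in low glucose and 377 CPM in high glucose. Pkm, pyruvate kinase, had 3075 CPM in low glucose and 2872 CPM in high glucose. Pgk1, phosphoglycerate kinase, had 322 CPM in low glucose and 442 CPM in high glucose. They showed no common direction.

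Side branches of glycolysis held 2 called genes in opposite directions. G6pdx, the enzyme that opens the pentose phosphate pathway, was higher in low glucose, with 183 CPM in low glucose against 112 CPM in high glucose (ratio 1.64, 95% interval 1.30 to 2.08). Its rows held 152, 184 and 214 CPM in low glucose and 71.8, 116 and 133 CPM in high glucose. Every low glucose row lay above every high glucose row. With spike-in scaling G6pdx had 9.21 counts per 1000 spike-in counts in low glucose and 6.72 in high glucose (ratio 1.37) and was not called. The 4 tested genes of this pathway (G6pdx, Pgd, Rpe and Tkt) all had ratios above 1 (49.7% over all tested genes), with a median log2 ratio of 0.39. Of these 4, 1 was called, where 1.74% of all tested genes were called higher. Gfpt2, which starts the hexosamine pathway, was lower in low glucose, with 8.65 CPM in low glucose against 31.5 CPM in high glucose (ratio 0.274, 0.136 to 0.531). Gfpt2 passed the filter only through its high glucose level, so it could not have been called higher. It stood at 6.39 CPM in galactose and 345 CPM in freshly isolated cells. Ogt, which attaches the sugar made by the hexosamine pathway to proteins, had 99.8 CPM in low glucose and 134 CPM in high glucose and was not called. Akr1b3, aldose reductase of the polyol pathway, had 678 CPM in low glucose and 1261 CPM in high glucose, but has pseudogene copies and was not tested.

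Of 31 tested nuclear genes of the respiratory chain, 27 had log2 ratios above 0, against 49.7% of all tested genes. Of these 31, 4 were called higher in low glucose (1.74% over all tested genes) and none lower. The median log2 ratio was 0.26, against -0.003 over all genes. It was 0.38 with TMM factors and 0.01 with spike-in scaling, against 0.12 and -0.26 over all genes. Cox6b1, a subunit of cytochrome c oxidase, had 181, 195 and 226 CPM in low glucose and 64.3, 87.2 and 114 CPM in high glucose. Its pools stood at 197 CPM in low glucose and 89.0 CPM in high glucose (ratio 2.21, 95% interval 1.72 to 2.86). Atp5g3, which encodes the ring subunit c of ATP synthase, had 297, 388 and 413 CPM in low glucose and 141, 179.5 and 227 CPM in high glucose. For both genes every low glucose row was above every high glucose row. The Atp5g3 ratio was 2.04 (1.71 to 2.43). Cox8a, another cytochrome c oxidase subunit, had 191 CPM in low glucose and 114 CPM in high glucose. Ndufa1, a complex I subunit, had 36.9 CPM in low glucose and 20.3 CPM in high glucose. Not every subunit shared this pattern. Atp5a1, the α subunit of ATP synthase, had 601 CPM in low glucose and 606 CPM in high glucose. Atp5b, its β subunit, had 948 CPM in low glucose and 1097 CPM in high glucose. With spike-in scaling Cox6b1 had 9.91 counts per 1000 spike-in counts in low glucose and 5.36 in high glucose and was still called. Atp5g3, with 18.97 counts per 1000 spike-in counts in low glucose and 11.1 in high glucose, was then no longer called, and neither was Ndufa1, with a ratio of 1.52 (0.891 to 2.73).

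Other mitochondrial lists held no call. The mitochondrial ribosome had 37 tested members, of which 29 had ratios above 1, against 49.7% of all tested genes. Past 1.5-fold there were 9 higher and none lower, against 11.0% and 10.4% of all tested genes. The list's median log2 ratio was 0.24, against -0.003 over all genes. With spike-in scaling it was -0.01, against -0.26 over all genes. Mrpl36, of its large subunit, had 63.4 CPM in low glucose and 27.0 CPM in high glucose (ratio 2.35, 1.498 to 3.82), with rows of 40.7 to 75.8 CPM over low glucose rows and 17.5 to 58.3 CPM over high glucose rows that overlapped. Mitochondrial import and proteostasis genes had a median of 0.24 over 11 genes and TCA cycle genes 0.23 over 11 genes. With spike-in scaling these medians were -0.01 and -0.03, against -0.26 over all genes. Among TCA cycle genes, Mdh2, malate dehydrogenase of the mitochondrion, had 714 CPM in low glucose and 570.1 CPM in high glucose. Ogdh, of the oxoglutarate dehydrogenase complex, had 171 CPM in low glucose and 113 CPM in high glucose, both with overlapping rows. Pyruvate entry genes had no call and a median of -0.07 over 5 genes (0.05 with TMM factors). Pdk4, which blocks pyruvate dehydrogenase, had 150.5 CPM in low glucose and 159 CPM in high glucose. Of the mitochondrial genome only 2 transcripts were free of pseudogene copies, and they went opposite ways. The complex I subunit mt-Nd1 had 2339 CPM in low glucose and 1556 CPM in high glucose, and the ATP synthase subunit mt-Atp8 had 72.7 CPM in low glucose and 116 CPM in high glucose, both with overlapping rows.

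The tilt of the lists stood beside a tilt with transcript length, whose part in it was not tested. Length was taken as the median over a gene's annotated transcripts, which need not be the length of the RNA expressed (737 bases for Col3a1). By this length the median log2 ratio of low over high glucose was 0.15 for 692 genes below 1000 bases. It was 0.03 for 1090 genes of 1000 to below 2000 bases, and -0.15 for 472 genes of 5000 bases or more. Genes called higher had a median length of 1339 bases, genes called lower 2481 bases and all tested genes 2300.5 bases. The rank correlation of length with the ratio was -0.16 for low over high glucose and 0.03 for low glucose over galactose, over 4197 genes that share the same libraries. Sdhaf3 and Lyrm4, chosen after their values were seen, encode small mitochondrial proteins of succinate dehydrogenase assembly and of iron-sulfur cluster synthesis. Sdhaf3 had 36.9 CPM in low glucose and 6.76 CPM in high glucose and Lyrm4 had 41.5 CPM in low glucose and 9.01 CPM in high glucose.

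Acetyl-CoA and histone acetylation, the axis named by the series, held 1 called gene. Acly, which cuts citrate to cytosolic acetyl-CoA, had 76.1 CPM in low glucose and 59.7 CPM in high glucose (ratio 1.27, 95% interval 0.920 to 1.79). Its rows held 56.6, 67.7 and 113 CPM in low glucose and 36.3, 61.4 and 76.0 CPM in high glucose, and these ranges overlapped. When each cell was thinned to 2000 counts, its log2 ratio was -0.23, against 0.35 over all counts. Slc25a1, the citrate exporter of the mitochondrion, had 53.6 CPM in low glucose and 41.7 CPM in high glucose, also with overlapping rows. Acat1, also of the acetyl-CoA supply list, had 24.3, 43.5 and 53.1 CPM in low glucose and 5.98, 15.4 and 33.3 CPM in high glucose. Its rows overlapped too. These 3 tested genes all had ratios above 1 (49.7% over all tested genes), and Acat1 passed 1.5-fold higher (log2 ratio 1.31). The list's median log2 ratio was 0.36 (0.11 with spike-in scaling), and none was called. Among 19 tested writers, erasers and readers of histone acetylation, 5 had ratios above 1, against 49.7% of all tested genes (median log2 ratio -0.17). None was called higher and 1 was called lower, against 1.74% and 1.22% of all tested genes. That gene was Brd2, a bromodomain reader of acetylated histones, with 375 CPM in low glucose against 589 CPM in high glucose (ratio 0.636, 95% interval 0.566 to 0.715). Its rows held 308, 384 and 434 CPM in low glucose and 450.2, 602 and 829.6 CPM in high glucose, and did not overlap. Kat2a, the acetyltransferase GCN5, had 76.7 CPM in low glucose and 85.6 CPM in high glucose. Sirt1, an NAD-dependent deacetylase, had 101 CPM in low glucose and 125 CPM in high glucose. In the thinned cells its log2 ratio was 0.51, against -0.30 over all counts. Crebbp, the acetyltransferase CBP, had 165 CPM in low glucose and 276 CPM in high glucose (ratio 0.600, 0.504 to 0.714), but its rows overlapped.

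The 12 genes that led the calls lower in low glucose were Timp3, Gpx3, Hspa1b, Pim1, Col3a1, Hspa1a, Pde4b, Zfp36, Acta2, Dnajb1, Stat3 and Ndrg1. They were ranked by the bound of the 95% interval of the ratio nearest 1, among called genes with a mean of at least 50 CPM. Timp3, an inhibitor of matrix metalloproteinases, had 3.32, 10.2 and 17.6 CPM in low glucose and 56.6, 77.1 and 175 CPM in high glucose. The pools stood at 10.4 CPM in low glucose and 93.5 CPM in high glucose (ratio 0.111, 95% interval 0.0627 to 0.186). Gpx3, a secreted glutathione peroxidase, had 61.0, 94.5 and 109 CPM in low glucose and 242, 391 and 481 CPM in high glucose. In both genes the highest low glucose row was well below the lowest high glucose row. The Gpx3 pools stood at 94.6 CPM in low glucose and 386 CPM in high glucose (ratio 0.245, 0.202 to 0.296). Pim1, a kinase induced by cytokine signalling, had 48.4 CPM in low glucose and 162 CPM in high glucose (ratio 0.299, 0.225 to 0.393). Stat3, the transcription factor of that signalling, had 115 CPM in low glucose and 265 CPM in high glucose (ratio 0.433, 0.357 to 0.526). Pde4b, which degrades cyclic AMP, had 101 CPM in low glucose and 275 CPM in high glucose. Ndrg1, a gene induced in hypoxia, had 138 CPM in low glucose and 288 CPM in high glucose. In the galactose pool, on the plate of the low glucose cells, Timp3 stood at 6.39 CPM and Gpx3 at 91.4 CPM.

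**Figure D3:**
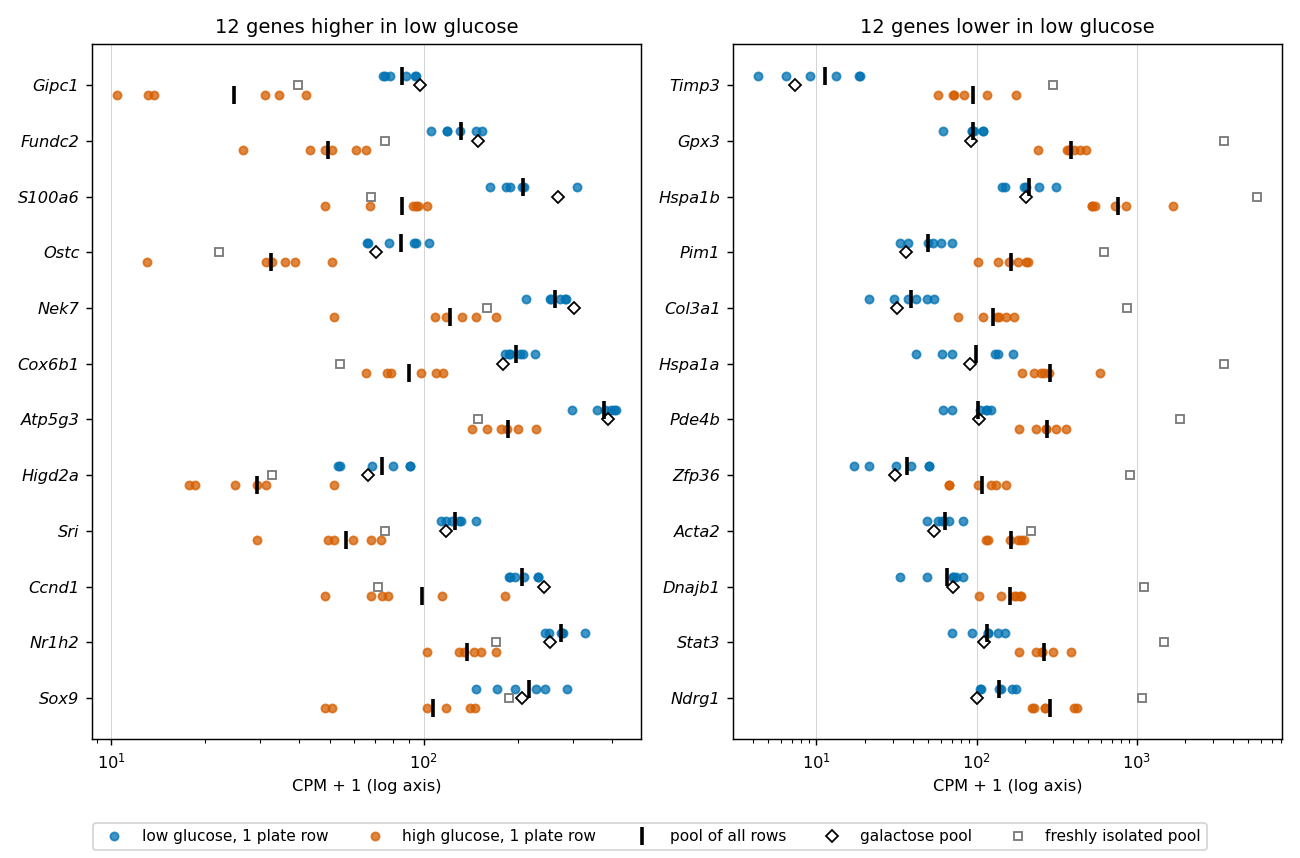
CPM + 1 (log axis) of the 12 genes leading the calls higher (left) and lower (right) in low glucose, with a dot per plate row (low glucose above high glucose), a bar for each pool, and open symbols for the galactose and freshly isolated pools. Galactose lies with low glucose in nearly every gene, and high glucose lies below freshly isolated cells in all 12 lower genes, from 162 CPM against 218 CPM for Acta2 to 767 CPM against 5695 CPM for Hspa1b.

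Of 9 tested heat shock chaperones, 3 were called lower in low glucose, none was called higher and 6 were called neither way, where 1.22% of all tested genes were called lower. The list's median log2 ratio was -0.64, and 5 of 9 passed 1.5-fold lower, against 10.4% of all tested genes. Hspa1b, an inducible HSP70 chaperone, had 143, 199.5 and 314 CPM in low glucose and 526, 639 and 1687 CPM in high glucose. Its pools stood at 212 CPM in low glucose and 767 CPM in high glucose (ratio 0.276, 95% interval 0.242 to 0.314). Hspa1a, the neighbouring copy of nearly the same sequence, had 40.6, 99.5 and 167 CPM in low glucose and 192, 258 and 594 CPM in high glucose. Reads of the pair may be split between them by the counting, so each value is uncertain, but neither pair of row ranges overlapped. Dnajb1, the HSP40 partner of HSP70, had 64.0 CPM in low glucose and 160.0 CPM in high glucose (ratio 0.400, 0.309 to 0.516). Hsph1, a partner of HSP70 that exchanges its nucleotide, had 37.5 CPM in low glucose and 92.4 CPM in high glucose, with overlapping rows. In wells of at least 5000 counts none of Hspa1a, Hspa1b and Dnajb1 was called. Their log2 ratios were then -0.66, -1.12 and -1.01, against -1.55, -1.85 and -1.31 over all wells, so the differences of Hspa1a and Hspa1b were much smaller there. The list's median was -0.55. Not every chaperone shared the pattern. Chordc1, a co-chaperone of HSP90, had 131 CPM in low glucose and 131 CPM in high glucose. Hsph1 and Chordc1 were chosen after their values were seen.

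The Hspa1a and Hspa1b promoters are shown because both genes were called together and the copies are hard to tell apart. Capitals mark GAANNTTC, which joins a pair of the units bound by heat shock factor and was searched after the values were seen. The windows span 250 bases before to 50 after the start (RefSeq, GRCm38.p6), Hspa1a at chr17:34972107-34972406, minus strand, and Hspa1b at chr17:34959189-34959488, minus strand.
Hspa1a: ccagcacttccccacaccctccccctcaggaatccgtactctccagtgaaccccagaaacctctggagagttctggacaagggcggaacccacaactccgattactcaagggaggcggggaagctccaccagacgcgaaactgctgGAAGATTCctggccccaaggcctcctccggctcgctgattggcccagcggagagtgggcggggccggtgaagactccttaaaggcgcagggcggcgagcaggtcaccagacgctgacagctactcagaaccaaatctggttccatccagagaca
Hspa1b: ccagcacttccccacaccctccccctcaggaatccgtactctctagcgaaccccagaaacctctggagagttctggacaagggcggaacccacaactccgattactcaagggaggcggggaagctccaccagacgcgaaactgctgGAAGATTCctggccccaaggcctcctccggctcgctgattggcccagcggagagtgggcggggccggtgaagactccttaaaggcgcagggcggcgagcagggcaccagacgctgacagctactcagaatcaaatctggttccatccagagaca
The windows had the same base at 296 of 300 positions, and in each the match began 104 bases before the start. GAANNTTC, which reads the same on both strands, was found in 7.89% of the 32544 promoters. Of 9 tested chaperone genes 8 had a promoter in the table and 5 of these held a match in any of their windows (Hspa1a, Hspa1b, Hsph1, Bag3 and Chordc1). This count is per gene and includes both Hspa1 copies, whereas the share of 7.89% is per promoter, so they are not like for like. Dnajb1 held none in its 2 windows.

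Immediate early genes are switched on within minutes of a stimulus such as tissue dissociation. Of 20 tested, 3 were called lower in low glucose (Fosb, Nr4a3 and Zfp36), none was called higher and 17 were called neither way. Past 1.5-fold there were 11 lower and 2 higher, against 10.4% and 11.0% of all tested genes, and the median log2 ratio was -0.60. Fosb, a subunit of the AP-1 factor, had 10.8, 16.5 and 28.5 CPM in low glucose and 40.9, 61.9 and 113 CPM in high glucose. Nr4a3, an orphan nuclear receptor, had 2.71, 4.06 and 6.63 CPM in low glucose and 11.7, 43.0 and 66.5 CPM in high glucose. Their highest low glucose rows lay below their lowest high glucose rows. Both genes were below 20 CPM in the low glucose pool and passed the filter only through high glucose, so they could only be called lower. Zfp36, which speeds the decay of cytokine mRNAs, had 35.7 CPM in low glucose and 107 CPM in high glucose (ratio 0.334, 0.239 to 0.465). Other members were high in both media. Fosl1, another AP-1 subunit, had 1075 CPM in low glucose and 1026 CPM in high glucose. Ccn1, a matricellular protein, had 1329 CPM in low glucose and 1414 CPM in high glucose. Without the genes of freshly isolated cells defined below, the medians of the immediate early and heat shock lists were -0.21 and -0.10. Those genes were chosen after the values were seen, in part for low levels in galactose. Leaving them out therefore raises such medians by choice, and no conclusion is drawn from it.

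The Nr4a3 promoter is shown because Nr4a3 had the lowest ratio of the immediate early list. The window (RefSeq, GRCm38.p6, chr4:48045055-48045354, plus strand) has TGACGT, part of the site of cyclic AMP responsive factors, in capitals.
Nr4a3: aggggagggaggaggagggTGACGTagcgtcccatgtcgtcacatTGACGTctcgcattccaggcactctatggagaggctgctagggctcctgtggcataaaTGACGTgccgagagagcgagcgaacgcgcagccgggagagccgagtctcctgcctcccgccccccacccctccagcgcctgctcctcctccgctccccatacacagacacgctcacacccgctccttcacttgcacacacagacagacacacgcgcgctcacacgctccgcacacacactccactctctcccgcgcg
TGACGT was found at 3 places here, on the strand shown, and on either strand in 7.55% of the 32544 promoters. Of 20 tested immediate early genes 16 had a promoter in the table, and 5 of these held it in any of their windows (Atf3, Nr4a3, Btg2, Dusp1 and Ccn1). This count is per gene and the share of 7.55% per promoter. The promoter of Fosb did not.

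Many genes lower in low glucose were genes of freshly isolated cells, which shared plate 1 with the high glucose cells. Of the 51 genes called lower, 23 (45.1%) were at least 2-fold higher in freshly isolated than in high glucose cells, against 4 of 73 genes called higher (5.48%) and 8.89% of all tested genes. Among the 12 leading genes this held for 11, all but Acta2. Gpx3 stood at 3499 CPM in freshly isolated cells, Hspa1b at 5695 CPM and Pde4b at 1876 CPM. Erfe, the hormone erythroferrone, named after its values were seen, had 2 counts in low glucose and 51 in high glucose (1.15 CPM in low glucose and 57.5 CPM in high glucose, ratio 0.0201, 0.00237 to 0.0763), and stood at 0.491 CPM in galactose and 1584 CPM in freshly isolated cells. Serping1, the C1 inhibitor of complement, also named after its values were seen, had 6.92 CPM in low glucose and 66.5 CPM in high glucose, and stood at 2.95 CPM in galactose and 489 CPM in freshly isolated cells. Both pools of plate 2 were thus far below high glucose for both genes.

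To describe this set, 58 genes were taken after the values were seen that had at least 200 CPM in freshly isolated cells and at least 10-fold less in galactose. Of these, 56 were higher in high than in low glucose, and of the 40 that passed the filter 20 were called lower in low glucose and none higher. Since the filter passes such a gene through its high glucose level, these counts support nothing beyond the description. Their level was a median of 3.82% of that in freshly isolated cells in low glucose and 11.0% in high glucose. Together they took 0.223% of gene counts in low glucose, 0.555% in high glucose, 0.194% in galactose and 4.67% in freshly isolated cells. The number of their counts per well moved with depth more in low than in high glucose. From the shallowest to the deepest of 4 equal groups of wells the median went 17, 21, 32 and 49 counts in low glucose, at median depths of 5527 to 25140.5 gene counts. In high glucose it went 35, 41, 41 and 46 counts, at depths of 3340 to 13582.5 gene counts. Whether these counts belong to the high glucose cells or to RNA of other wells of plate 1 was not tested. Leaving the 58 genes out left 31 genes called lower in low glucose, a drop that follows in part from how the set was chosen.

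**Figure D4:**
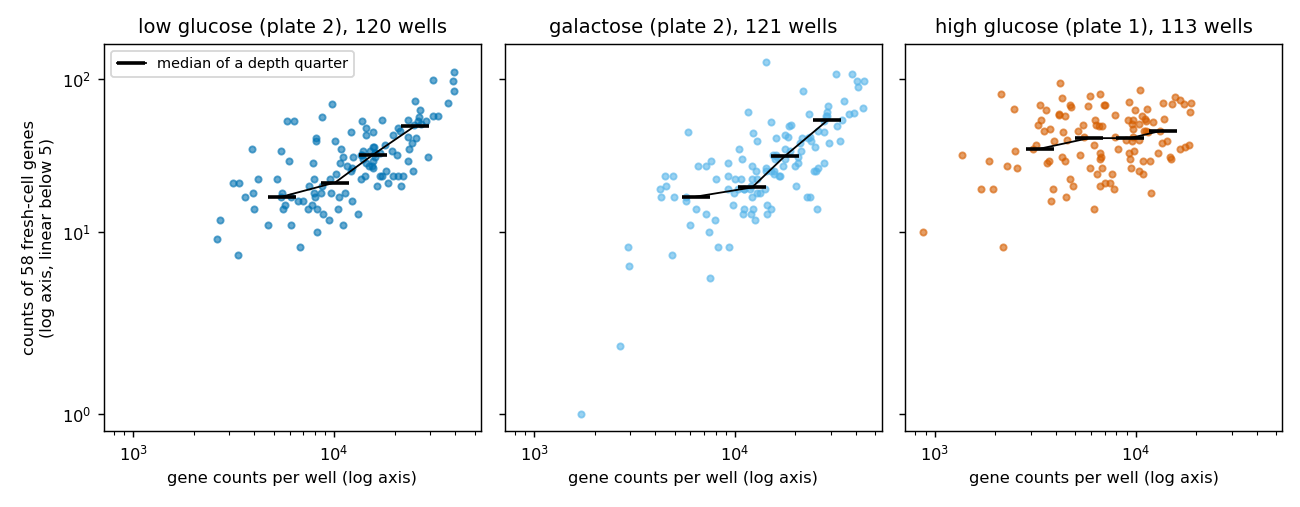
Counts of the 58 genes of freshly isolated cells against gene counts per well (log axes, the vertical one linear below 5), with a dot per well and the medians of 4 depth groups as bars, for low glucose, galactose and high glucose. The medians climb with depth in low glucose (17 to 49) and galactose (17 to 53.5) and stay between 35 and 46 in high glucose.

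The 12 genes that led the calls higher in low glucose were Gipc1, Fundc2, S100a6, Ostc, Nek7, Cox6b1, Atp5g3, Higd2a, Sri, Ccnd1, Nr1h2 and Sox9. Gipc1, an adaptor that links receptors to vesicle transport, had 73.2, 81.8 and 93.8 CPM in low glucose and 9.43, 21.3 and 40.9 CPM in high glucose. The pools stood at 84.2 CPM in low glucose and 23.7 CPM in high glucose (ratio 3.56, 95% interval 2.24 to 5.92). S100a6, a calcium-binding protein of growing cells, had 163, 197 and 309 CPM in low glucose and 47.1, 92.6 and 102 CPM in high glucose. In both genes every low glucose row was above every high glucose row. Fundc2, a protein of the outer mitochondrial membrane, had 130.3 CPM in low glucose and 48.4 CPM in high glucose (ratio 2.69, 1.93 to 3.82). Higd2a, which helps assemble respiratory chain complexes, had 72.7 CPM in low glucose and 28.2 CPM in high glucose (ratio 2.58, 1.67 to 4.14). Ostc, of the enzyme that attaches sugar chains to new secretory proteins, had 83.6 CPM in low glucose and 31.5 CPM in high glucose. Nek7, a kinase of mitosis and of the inflammasome, had 262 CPM in low glucose and 121 CPM in high glucose. Sri, the calcium-binding protein sorcin, had 125 CPM in low glucose and 55.2 CPM in high glucose. Nr1h2, the sterol receptor LXR beta, had 274 CPM in low glucose and 136 CPM in high glucose. Sox9, a transcription factor of cartilage and of several progenitor cells, had 216 CPM in low glucose and 106 CPM in high glucose (ratio 2.04, 1.62 to 2.59). In the galactose pool Gipc1 stood at 96.3 CPM and S100a6 at 268 CPM. With spike-in scaling Atp5g3, Ccnd1, Higd2a, Ostc and Sox9 were no longer called, although their ratios stayed above 1.

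Of 7 tested cell cycle genes of the G1 phase, 2 were called higher in low glucose and none lower, against 1.74% and 1.22% of all tested genes. Past 1.5-fold there were 3 higher and 1 lower, against 11.0% and 10.4% of all tested genes. The median log2 ratio was 0.53 (0.29 with spike-in scaling). Ccnd1, cyclin D1, which drives cells through G1, had 187, 202 and 232 CPM in low glucose and 47.1, 74.3 and 181 CPM in high glucose, with the highest high glucose row just below the lowest low glucose row. The pools stood at 205 CPM in low glucose and 98.0 CPM in high glucose (ratio 2.09, 95% interval 1.65 to 2.68), against 242 CPM in galactose and 70.4 CPM in freshly isolated cells. The call of Ccnd1 was lost with equal weight per cell, with thinned cells, in wells of at least 5000 counts, with spike-in scaling and with the total of protein-coding genes, where its log2 ratio was 1.00, 0.91, 0.98, 0.81 and 1.04, against 1.06. Cdkn1b, the cyclin-dependent kinase inhibitor p27, had 47.9 CPM in low glucose and 20.3 CPM in high glucose (ratio 2.36, 1.41 to 4.18). With spike-in scaling Cdkn1b was not called either, at a ratio of 1.97 (1.18 to 3.49). Cdkn1a, the inhibitor p21, had 1956 CPM in low glucose and 1983 CPM in high glucose (ratio 0.987, 0.931 to 1.05), without a call. The 17 tested p53 targets, to which Cdkn1a belongs, had no call and a median log2 ratio of -0.27. Mdm2, which degrades p53, had 1022 CPM in low glucose and 1507 CPM in high glucose with overlapping rows. The 5 tested DNA replication genes had no call and a median of -0.14.

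Myogenic genes held a single call. Pax7, the factor that marks muscle stem cells, had 54.8 CPM in low glucose and 56.3 CPM in high glucose (ratio 0.972, 95% interval 0.683 to 1.40). This leaves room for differences within these bounds. When each cell was thinned to 2000 counts, the log2 ratio of Pax7 was 1.02, against -0.04 over all counts. Myf5, an early myogenic factor, had 369.6 CPM in low glucose and 286 CPM in high glucose (ratio 1.29). Myod1, the factor of activated cells, had 801 CPM in low glucose and 705 CPM in high glucose (ratio 1.14, 1.03 to 1.25). Vcam1, a surface protein used to sort quiescent cells, had 51.3 CPM in low glucose and 48.4 CPM in high glucose (ratio 1.06, 0.728 to 1.56). The rows of these 4 genes overlapped between the media. Of 16 tested myogenic and stem cell factors, 1 was called, Spry1, which was lower in low glucose (1.22% over all tested genes). The median log2 ratio was 0.06 (-0.20 with spike-in scaling). Spry1, a feedback inhibitor of FGF signalling linked to quiescence, had 44.7, 64.2 and 84.0 CPM in low glucose and 104, 128 and 158 CPM in high glucose. Its pools stood at 66.3 CPM in low glucose and 128 CPM in high glucose (ratio 0.516, 0.395 to 0.675), and freshly isolated cells had 408 CPM.

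Tnnt2, a troponin of embryonic and regenerating muscle, was below the CPM filter and is given as counts. It had 58 counts in low glucose (rows 12.2 to 48.7 CPM) and 1 count in high glucose, a ratio of 29.7 with a counting interval of 5.12 to 1192. The galactose pool had 46.2 CPM and freshly isolated cells 17.6 CPM. Counts of Tnnt2 lay in 37 of 120 low glucose cells and in 1 of 113 high glucose cells, without thinning to equal depth. After each cell was thinned to 2000 counts the gene had a count in 4 of 120 low glucose cells and in none of 108 high glucose cells, and such counts are too few for a comparison at that depth. Hmga2, a chromatin protein of growing and fetal cells, has a pseudogene copy and was not tested. It had 518 CPM in low glucose and 261 CPM in high glucose, with rows of 337 to 653 CPM over low glucose rows and 183 to 314 CPM over high glucose rows.

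Of 13 tested antioxidant and metallothionein genes, 11 had ratios above 1, against 49.7% of all tested genes. Of the 13, 1 was called higher in low glucose (1.74% over all tested genes). The median log2 ratio was 0.44 (0.18 with spike-in scaling). Mt1, a metallothionein that binds zinc and copper, had 517, 652 and 771 CPM in low glucose and 281, 357 and 477 CPM in high glucose. All low glucose rows were above all high glucose rows. Its pools stood at 641 CPM in low glucose and 369.5 CPM in high glucose (ratio 1.74, 95% interval 1.53 to 1.97), and it was not called with spike-in scaling. Mt2, its neighbour, had 469 CPM in low glucose and 320.0 CPM in high glucose. Hmox1, heme oxygenase 1, had 2349 CPM in low glucose and 1653 CPM in high glucose, both with overlapping rows.

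The promoter of Mt1 is shown for its metal response elements, which share the core TGCNCNC (capitals). The window lies at chr8:94178839-94179138, plus strand (RefSeq, GRCm38.p6).
Mt1: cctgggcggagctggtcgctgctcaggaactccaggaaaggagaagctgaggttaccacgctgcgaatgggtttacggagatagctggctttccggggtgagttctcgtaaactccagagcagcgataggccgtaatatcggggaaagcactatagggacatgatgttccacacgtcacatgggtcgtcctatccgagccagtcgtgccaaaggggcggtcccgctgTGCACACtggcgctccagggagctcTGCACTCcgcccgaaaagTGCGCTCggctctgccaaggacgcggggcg
The core was matched 3 times on the strand shown, first at 23 bases before the start, and on either strand in 51.3% of the 32544 promoters, so it is common.

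Matrix genes pointed both ways. Of 11 tested collagen and matrix genes, 9 had ratios above 1 (49.7% over all tested genes). The 2 called genes, Timp3 and Col3a1, were lower in low glucose (1.22% over all tested genes). The median log2 ratio of 0.55 and the calls thus differ in sign. Timp3 passed the filter only through its high glucose level. Col3a1, a fibrillar collagen, had 20.3, 38.6 and 53.1 CPM in low glucose and 76.0, 135 and 169.7 CPM in high glucose, and stood at 873 CPM in freshly isolated cells. Tnc, tenascin C, chosen after its values were seen, had 35.2 CPM in low glucose and 12.4 CPM in high glucose (ratio 2.84, 1.48 to 5.98), with overlapping rows. In the actin and adhesion list S100a6 was called higher and Acta2 and Tagln lower, of 24 tested genes (median 0.18, -0.07 with spike-in scaling). Over all tested genes 1.74% were called higher and 1.22% lower. Tagln, an actin-binding protein of smooth muscle, had 4 counts in low glucose and 36 in high glucose (ratio 0.0569, 0.0147 to 0.159). Tagln passed the filter only through its high glucose level. Acta2, smooth muscle actin, had 62.3 CPM in low glucose and 162 CPM in high glucose (ratio 0.384, 0.296 to 0.496).

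Markers of other cell types were measured beside these genes. Of the 10 smooth muscle and pericyte markers 8 were found, and their summed level was 75.5 CPM in low glucose (rows 60.8 to 89.4) and 225 CPM in high glucose (152 to 287). It was 567 CPM in freshly isolated cells. Acta2 and Tagln made up most of it, and 1 marker was at 0 in low glucose and 2 in high glucose. Of the 10 fibro-adipogenic markers 3 were found, with a summed level of 40.4 CPM in low glucose, 133 CPM in high glucose and 1098 CPM in freshly isolated cells, mostly Col3a1. Endothelial markers (6 of 10 found) summed to 18.5 CPM in low glucose and 46.2 CPM in high glucose. Mature myofibre markers (2 of 10 found) summed to 11.0 CPM in low glucose and 28.2 CPM in high glucose. Tenocyte markers (2 of 5 found) went the other way, with 10.4 CPM in low glucose and 7.89 CPM in high glucose. Glial markers (2 of 7 found) summed to 2.31 CPM in low glucose and 6.76 CPM in high glucose, and immune markers (1 of 10 found) to 2.88 CPM and 5.63 CPM. Wells with 3 or more markers of 1 other type numbered 1 in low glucose and 6 in high glucose, of which 1 and 5 were of the smooth muscle and pericyte type. Without these wells 74 genes were called higher and 45 lower, of which 63 and 38 were among the genes called with them, and the log2 ratio of Acta2 was -1.33 against -1.37. Whether RNA of other cell types in the remaining wells took part in the calls was not tested.

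Secreted signals differed in a few genes. Of 11 tested chemokines, cytokines and receptors 1 was called higher and 1 lower, against 1.74% and 1.22% of all tested genes. The median log2 ratio was -0.11 (0.004 with TMM factors). Cxcl12, a chemokine that attracts Cxcr4-bearing cells, had 191, 220.3 and 248 CPM in low glucose and 83.3, 106 and 171 CPM in high glucose. Its pools stood at 221 CPM in low glucose and 114 CPM in high glucose (ratio 1.94, 1.55 to 2.44). With spike-in scaling Cxcl12 had 11.1 counts per 1000 spike-in counts in low glucose and 6.85 in high glucose and was not called. Tnfrsf11a, the receptor RANK, had 91.1 CPM in low glucose and 143 CPM in high glucose, and 7.04 CPM in freshly isolated cells, so that it was highest in high glucose. Ccl2, a chemokine for monocytes, had 231 CPM in low glucose and 324 CPM in high glucose, but a single high glucose well gave 153 of the 288 counts. Without high glucose row L, which was far above the other rows, the direction of Ccl2 turned, with a log2 ratio of 0.50 against -0.49 over all rows. Cxcl1, a chemokine for neutrophils, had 50.7 CPM in low glucose and 146 CPM in high glucose and 1285 CPM in freshly isolated cells, with overlapping rows.

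Other lists held few calls, where 1.74% of all tested genes were called higher and 1.22% lower. AMPK and mTORC1 regulators had a median log2 ratio of -0.27 over 12 genes with no call. Amino acid synthesis and integrated stress response genes had 0.23 over 22 genes with no call (-0.03 with spike-in scaling). Atf4, the factor of that response, had 1608 CPM in low glucose and 1531 CPM in high glucose. Cholesterol and fatty acid synthesis genes had 0.15 over 11 genes (-0.10 with spike-in scaling), with no call. Fatty acid oxidation genes had -0.19 over 11 genes with no call. Endoplasmic reticulum chaperones had -0.12 over 13 genes with no call, and Hspa5, the chaperone BiP, had 563 CPM in low glucose and 789 CPM in high glucose with rows apart but a ratio short of 1.5-fold. Ribosomal proteins could be judged for only 3 of 74 genes found, with a median of 0.36. In the hypoxia list Ndrg1 was the single call among 11 genes (median 0.01, -0.24 with spike-in scaling), and in the lysosome list Npc2, a cholesterol carrier, was called higher among 22 genes with 137 CPM in low glucose and 81.1 CPM in high glucose.

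**Figure D5:**
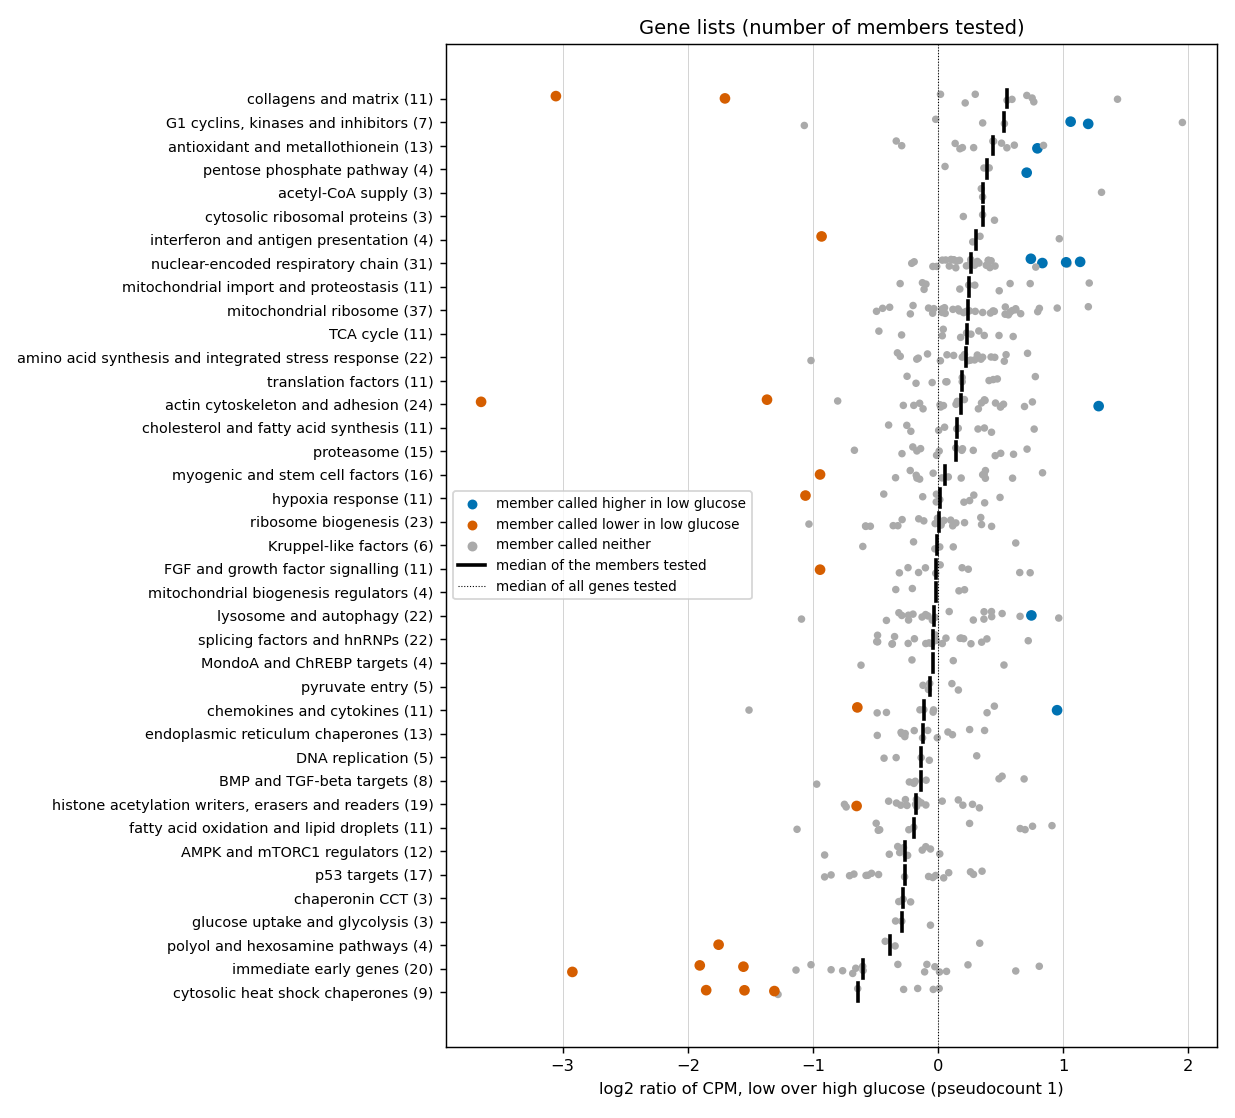
Log2 ratio of CPM, low over high glucose (pseudocount 1 CPM), of the tested members of each gene list with at least 3 of them (number in brackets), as a dot per gene, with the list's median as a bar and the median of all genes (-0.003) as a dotted line. The immediate early and heat shock lists lie lowest, at -0.60 and -0.64, and most respiratory chain members lie right of 0, with a median of 0.26.

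The leading genes were also compared as shares of cells with a count. After each cell was thinned to 2000 counts, all 12 genes called lower and all 12 called higher differed in the direction of their calls, but the 95% intervals of the shares lay apart for only 9 of the 12 lower and 2 of the 12 higher genes. The thinning left out 5 high glucose cells. Gipc1 had a count in 15.8% of 120 low glucose cells (exact binomial 95% interval 9.81 to 23.6%) and in 6.48% of 108 high glucose cells (interval 2.65 to 12.9%). These intervals overlapped. Without thinning the Gipc1 shares were 64.2% and 16.8%. Gpx3 had a count in 16.7% of low glucose cells (10.5 to 24.6%) and in 51.9% of cells in high glucose (interval 42.0 to 61.6%). Its shares without thinning were 70.0% and 87.6%. Hspa1b had a thinned share of 26.7% (19.01 to 35.5%) in low glucose and 62.0% (52.2 to 71.2%) in high glucose. Sox9, called higher, had 25.0% in low glucose and 19.4% in high glucose, with overlapping intervals, and 11.7% and 11.6% when thinned to 1000 counts. At 1000 counts all 12 lower genes but only 11 of the 12 higher genes kept their direction. Sri turned, with 5.83% of low glucose cells and 7.14% of high glucose cells. These intervals cover counting error among cells only, and no single well held more than 9.52% of the counts of Gipc1, Gpx3 or Hspa1b in its pool.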

How the data were processed

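Each plate was sequenced as 1 library, and the deposited tables hold counts per gene and well made by the authors. Per the labels' protocols, a modified CEL-Seq2 protocol was used with a 6-base UMI before the barcode. Per the submitters' processing notes edgeR was used. No aligner, genome build or UMI collapsing step is named in the labels. The largest count of a gene in a well was 1564, below the 4096 possible UMIs. Wells were assigned to media by the deposited well sheet, and a well needed 500 gene counts and 250 genes, which removed 1 high glucose well with 8 counts.

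Counts were summed over the wells of a medium and divided by the total of gene counts without ERCC. Gene symbols matched 99.6% of 21216 identifiers. Of 12846 protein-coding genes, 2163 had a pseudogene copy (aligned with minimap2 2.31 over at least 150 bases at 90% identity or more) and were left out. Genes with a mean of at least 20 CPM over the 2 pools were tested for size. Ratios carry exact conditional binomial 95% intervals, which cover counting error only. Log2 ratios use a pseudocount of 1 CPM. With 1 library per plate and 1 pool per medium and no word on separate cultures, no model across genes was fitted. Named genes were the 12 called genes on each side that ranked first by the interval bound nearest 1, with a mean of at least 50 CPM, up to 4 genes per list and a fixed set of looked-up genes. The cells, the gene lists and these genes were chosen with earlier results of these data known, and the lists come in part from an earlier pass over the same data. The script was checked on simulated counts with 200 genes of known fold change. Python 3.11.15, numpy 2.4.6, pandas 2.3.3, scipy 1.17.1 and R 4.3.3 with edgeR 4.0.16 (for TMM factors) were used. The alternatives, 16 planned and 2 added after the values were seen, are given in the closing part. Mki67 and Myog were not analysed here. Promoter sequences come from RefSeq (GRCm38.p6).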

Additional observations from a re-analysis of the deposited data

Results flagged for a closer look

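In 51 named genes the 6 plate rows of each medium were examined for a row that stood far from the other 5, and 8 of 102 groups had one, where chance gives about 1 in 20. Among low glucose rows, Gpx3 had 61.0 CPM in row A against 92.1 to 109 CPM in the other rows. S100a6 had 309 CPM in low glucose row F against 163 to 209 CPM. Among high glucose rows, row H stood out for 3 genes. Hspa1a had 594 CPM there against 192 to 284 CPM in the other rows, and Hspa1b had 1687 CPM against 526 to 864 CPM. Cdkn1a had 3036 CPM in row H against 1722 to 1918 CPM. Row L of high glucose stood out for Ccl2, with 1358 CPM against 138 to 246 CPM, where 1 well gave most counts. Arrdc4 had 33.3 CPM in high glucose row L against 0 to 9.43 CPM. The single Tnnt2 count of high glucose gave 6.33 CPM in row K and 0 in the others. Both calls of the Hspa1 genes were kept without row H, although leaving out a row cannot make separate row ranges overlap.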

How the results depend on the processing

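No paired analysis was possible because each plate is 1 library, so the groups compared share fewer than 2 replicate numbers. The 12 leading genes of each direction, Mt1 and Spry1 kept their sign under each alternative in which they were tested. Counts of genes called higher and lower in low glucose, 73 and 51, came to 112 and 29 with TMM factors and to 104 and 30 with median-of-ratios factors, where 268 and 281 genes were past 1.5-fold lower. With spike-in scaling they came to 14 and 152, with 183 and 980 past 1.5-fold. The median log2 ratio of all genes, -0.003, was 0.12, 0.10 and -0.26 under these scalings. A minimum of 10 CPM gave 727 genes past 1.5-fold lower. A minimum of 50 CPM gave 32 called lower, and 194 and 167 past 1.5-fold. No filter gave 79 called lower, and 1657 and 2084 past 1.5-fold. Cells thinned to 2000 counts gave 13 and 11 calls, of which 5 and 7 were among the 73 and 51, and 836 and 859 genes past 1.5-fold. Of the 12 leading genes called higher only Atp5g3 was still called after this thinning. Of the 12 leading lower genes Hspa1a, Ndrg1, Pde4b, Stat3 and Zfp36 were then no longer called, and neither was Spry1. Among looked-up genes without a call, the log2 ratios of Acly, Cdkn1a, Myod1, Pax7, Pdk4, Sirt1, Slc2a1, Txnip and Vcam1 changed sign with this thinning. All genes with a symbol, pseudogene copies included, gave 158 and 130 calls, and 730 and 852 past 1.5-fold. Without the genes of freshly isolated cells, a set chosen after the values were seen, 31 were called lower. Spike-in species with at least 100 counts had an SD of 0.23 beyond counting error. Leaving out each plate row gave 72 to 122 called higher, 55 to 73 lower, 446 to 503 and 440 to 472 past 1.5-fold, and a median of -0.02 to 0.01. With a row left out the row rule is easier to pass, so the counts of calls are not like for like. Of the values for named genes 681 of 742 kept their call or lay within their counting interval, 37 lost a call, 2 gained one and 22 moved otherwise. With equal weight per cell Atp5g3, Ccnd1, Hspa1a, Ndrg1, Sox9 and Zfp36 were no longer called, and in wells of at least 5000 counts Ccnd1, Dnajb1, Higd2a, Hspa1a, Hspa1b, Spry1 and Zfp36. The cause was not tested. The smaller high glucose pool limits the precision of genes near 20 CPM.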

Other observations

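Transcripts of the mitochondrial genome took 1.89% of gene counts in low glucose and 1.51% in high glucose. Cytosolic ribosomal protein genes, copies included, took 8.03% in low glucose and 6.82% in high glucose, and pseudogenes took 23.8% in low glucose and 25.1% in high glucose. The ranges of the 6 plate rows overlapped between the media for all 3 classes. Of the genes called between low and high glucose, 11 of 73 called higher and 16 of 51 called lower belonged to a pathway list, where 466 of 4197 tested genes did.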
